A study of Mus musculus with 48 samples.

Results

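The IL-6 family cytokines and receptors described here are 9 genes of the 54752 in the deposited expression matrix: the ligands Il6, Il11, Lif, Ctf1 and Clcf1, and the receptor chains Il6st, Il6ra, Lifr and Osmr. The members were chosen by family membership, with earlier results of the same matrix known and with no threshold on a value, so the levels below are a description and no test on them is independent support for the choice. All 9 were found by matching Ensembl identifiers to mouse symbols.

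The study asked how VEGFCc156s, a VEGF-C mutant selective for the lymphatic receptor VEGFR3, acts in a mouse model of angiotensin II infusion. All mice were male Prox1-eGFP knock-in animals of the strain labelled C57BL/6 (by the study's methods the line was made in C57BL/6J embryos and its founders crossed to C57BL/6J), labelled 8 to 16 months old, in which the endogenous Prox1 promoter drives eGFP and so marks lymphatic endothelium. A subcutaneous minipump delivered saline with BSA (ctrl), angiotensin II with BSA (angII), or angiotensin II together with VEGFCc156s (angII+VEGFC). By the study's methods the cells were isolated several weeks after the pump was implanted. From 13 mice, 48 RNA-seq libraries covered 4 populations: heart lymphatic endothelial cells (heart LECs), diaphragm LECs, heart blood endothelial cells (heart BECs) and cardiomyocytes, each with 4 ctrl, 5 angII and 3 angII+VEGFC libraries. LECs and BECs were sorted as CD31+ CD45.2- cells and separated by eGFP, whereas cardiomyocytes were pelleted at low speed from the digested heart and not sorted. Libraries of a mouse could be paired across populations, except that the diaphragm set held mouse 4 and the heart sets mouse 12. Endothelial libraries were sequenced in batches 1 and 2 and cardiomyocytes in batch 3, so in any comparison with cardiomyocytes the batch and the population cannot be told apart.

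IL-6 family cytokines signal through receptor complexes that share the chain gp130, the product of Il6st. IL-6 first binds Il6ra, IL-11 binds its own alpha chain, LIF and cardiotrophin-1 recruit Lifr, and in mice oncostatin M recruits Osmr, after which Janus kinases phosphorylate STAT3 and feedback inhibitors such as Socs3 are induced. In the heart, gp130 signalling is known for its roles in cardiomyocyte survival and hypertrophy, and in vessels IL-6 is known as an inflammatory cytokine that fibroblasts, endothelium and leukocytes can make.

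Expression values were TPM, a measure of transcript abundance that is corrected for gene length and scaled to a fixed sum, and had nearly the same total in each library (997657 to 999929). TPM keep no record of the read depth, so the depth behind each value is unknown and no counting error can be given. Between 12924 and 25896 genes per library reached 1 TPM, and the cardiomyocyte library of mouse 8, with 19306, stood apart from the 13020 to 15816 of the other cardiomyocyte libraries. In diaphragm LECs 20062 to 23691 genes did so in angII, above the 12924 to 18116 of ctrl and the 14963 to 18373 of angII+VEGFC. In heart LECs the ranges were 19957 to 25896, 16131 to 24086 and 16756 to 18884 in the same order. The groups overlapped in heart BECs and cardiomyocytes. What part this had in the LEC treatment contrasts was not tested. Summed LEC markers (7 genes, among them Prox1 and Lyve1) reached 18170 to 43488 TPM in the LEC populations and at most 708 TPM in the others. The 8 cardiomyocyte markers summed to 8104 to 21584 TPM in the cardiomyocyte libraries. These libraries also held 7006 to 12785 TPM of 8 fibroblast markers and 520 to 1698 TPM of 8 macrophage markers, against at most 312 TPM of macrophage markers in any endothelial library. Among heart BEC libraries, those of mice 1, 2 and 3 held 13206, 8087 and 7351 TPM of fibroblast markers and no other exceeded 5000.

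Among the members, Il6 was the most abundant ligand in all 4 populations and Il6st the most abundant receptor chain. Over the 12 libraries of each population, median Il6 was 275 TPM in heart BECs, 174 in diaphragm LECs, 130 in cardiomyocytes and 60.2 in heart LECs, while median Il6st was 203, 315, 72.5 and 312 TPM. The ranges of populations next to each other in the Il6 order overlapped. Among the member chains Osmr followed with medians of 13.7 to 66.9 TPM, Lifr with 5.93 to 22.6 and Il6ra with 1.87 to 16.6. The IL-11 receptor chain Il11ra1, not a member, had a median of 104 TPM in cardiomyocyte libraries, above that of Il6st. The other ligands were low, with medians of 2.46 to 4.25 TPM for Clcf1, 0.328 to 3.51 for Ctf1, 0.519 to 3.43 for Lif and 0.172 to 0.758 for Il11. In a bulk library, fewer cells of a type and less RNA per cell cannot be told apart.

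**Figure D1:**
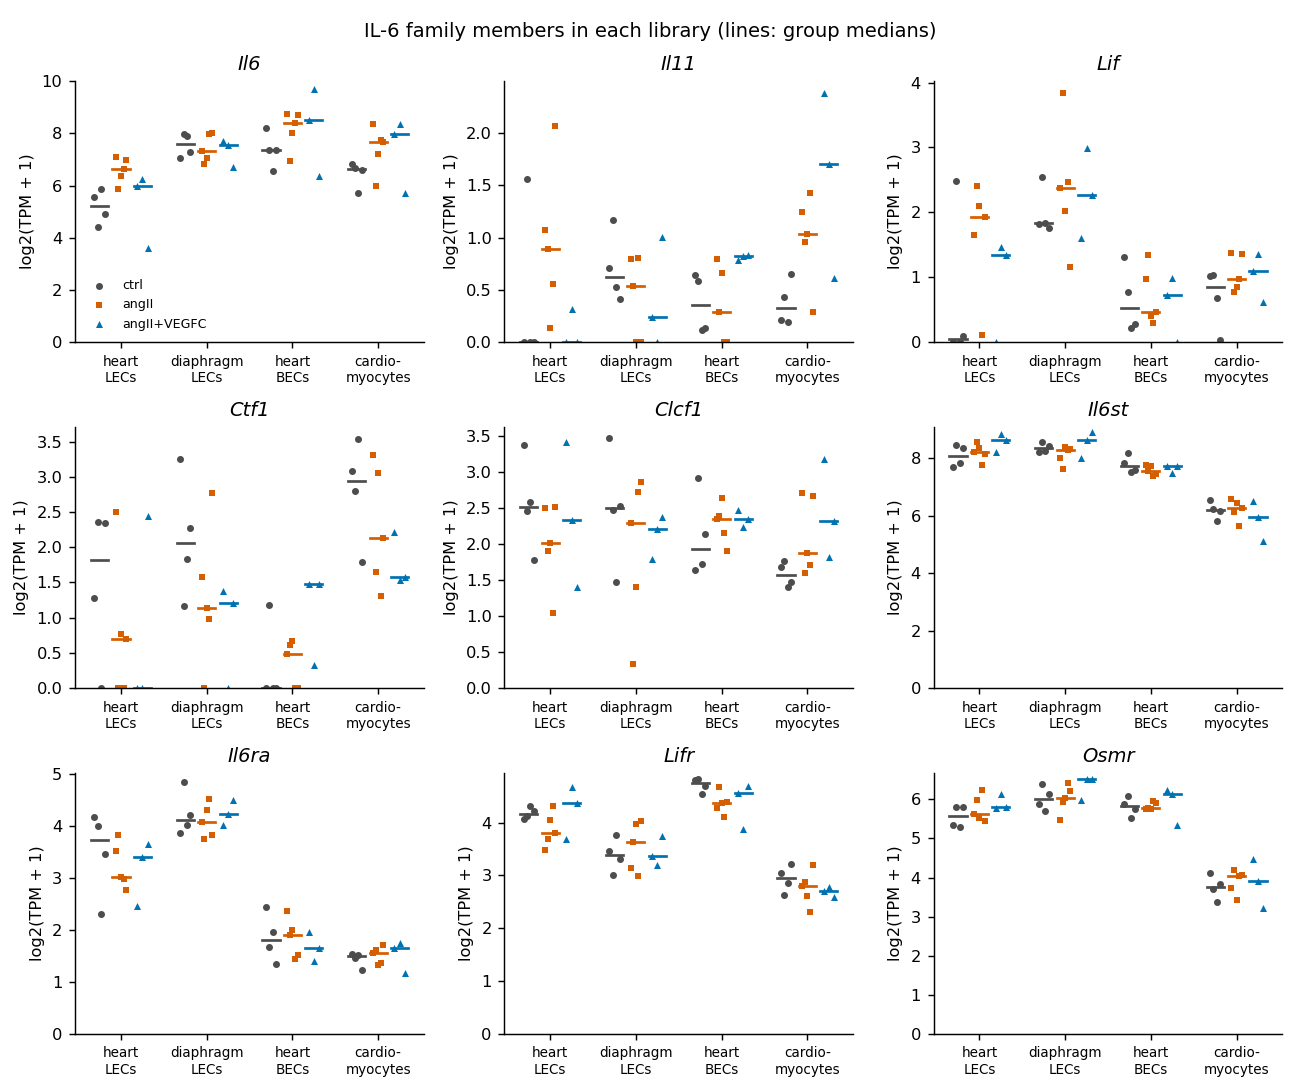
Level of each member as log2(TPM + 1) in every library, by population and treatment, with a line at each group's median. Il6, Clcf1 and the 4 receptor chains were detected in every library, with Il6 lowest in heart LECs (median 60.2 TPM), whereas Il11, Lif and Ctf1 were listed at 0 in several.

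Il6 encodes IL-6 itself and lies on chromosome 5 at chr5:30013114-30019981, plus strand, of GRCm38. Because Il6 was the ligand with the highest level, short stretches of its promoter are shown, together with the AP-1 matches of Il11 and Lif, the other ligands whose RefSeq promoter windows (250 bases before to 50 after the start, GRCm38.p6) held one upstream. Sequences are written 5′ to 3′ on the strand of the gene, capitals mark the motif match, and positions count from the start base as 0. Both strands were searched for 5 motifs.
Il6 NF-kB match, bases -44 to -35, chr5:30013060-30013089, plus strand: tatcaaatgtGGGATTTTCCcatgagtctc
Il6 C/EBP match, bases -128 to -121, chr5:30012975-30013004, plus strand: acgacgtcacaTTGTGCAAtcttaataagg
Il6 AP-1 match, bases -249 to -243, chr5:30012864-30012893, plus strand: cTGAGTCActtttaaagaaaaaaaagaaga
Il11 AP-1 match, bases -98 to -92, chr7:4778221-4778250, minus strand: aggagggagggTGAGTCAggatgtgtcagg
Lif AP-1 match, bases -228 to -222, chr11:4257329-4257358, plus strand: ccagtcagctgTGACTCAggccatagtggc

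The NF-kB letters searched, GGGA, any base, then TTTCC, occur in 0.411% of 32851 RefSeq promoter windows of this length, and among the members' windows only in that of Il6. The AP-1 letters TGANTCA occur in 7.81% and the C/EBP letters TTGCNNAA, found in Il6 on the opposite strand, in 10.8% of windows. The CRE letters TGACGTCA (1.79% of windows) and the STAT letters TTCNNNGAA (8.3%) were in no member's window, and that of Osmr held an AP-1 match after the start. Windows were at hand for 8 of the 9 members, Clcf1 being without one. The printed matches do not overlap each other, and a match is a description of letters, not a shown binding site.

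In heart LECs, Il6 was 46.0, 20.4, 57.3 and 28.8 TPM in ctrl mice 1, 5, 9 and 11. In angII mice 3, 15, 12, 18 and 14 it was 136, 97.6, 57.8, 125 and 81.6 TPM. In angII+VEGFC mice 2, 6 and 8 it was 62.6, 75.8 and 11.1 TPM. All angII values lay above all ctrl values, by a narrow margin between mouse 9 and mouse 12, and the angII+VEGFC mice spread across both ranges, with mouse 8 below every other library.

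In heart BECs, Il6 was 295, 164, 92.3 and 164 TPM in the ctrl mice in the same order. In the angII mice it was 425, 339, 123, 414 and 255 TPM, and in the angII+VEGFC mice it was 368, 832 and 82.1 TPM. The groups overlapped, and mice 6 and 8 of angII+VEGFC held the highest and the lowest heart BEC values.

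Cardiomyocyte libraries held 113, 101, 52.2 and 96.5 TPM of Il6 in ctrl, then 326, 214, 62.2, 205 and 147 TPM in angII and 251, 332 and 51.4 TPM in angII+VEGFC. Here too the groups overlapped and mice 6 and 8 were the extremes. Diaphragm LECs held 132, 252, 239 and 155 TPM in ctrl, 161, 248, 113, 256 and 132 TPM in angII mice 3, 15, 4, 18 and 14, and 206, 187 and 104 TPM in angII+VEGFC. The diaphragm groups covered nearly the same range, and mouse 8 again had the lowest value, as it did in all 4 populations.

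Heart LECs and heart BECs of the same mouse differed in the balance of ligand and receptor: Il6 was lower in heart LECs in 12 of 12 mice, with a median ratio of 0.232 (range 0.0911 to 0.621), while Il6ra, the IL-6 binding chain, was higher in 12 of 12, with a median ratio of 3.93 (1.36 to 6.84). The shared chain Il6st was higher in 11 of 12 mice, with a median ratio of 1.47. In limma fitted to log2(TPM + 1) of all 29402 genes tested, with the mouse as a block, the log2 difference was -2.11 (SE 0.19, adjusted p = 8.8e-08) for Il6, 1.5 (SE 0.21, adjusted p = 2.3e-05) for Il6ra and 0.59 (SE 0.10, adjusted p = 0.00025) for Il6st. With ctrl mice only, the Il6st difference was 0.30 (limma adjusted p = 0.34) and that of Il6ra 1.63 (adjusted p = 0.081), so both calls were lost with these 4 mice. Differences on this scale understate those of low genes.

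These 3 of 9 members passed an adjusted p of 0.05 between heart LECs and heart BECs, 2 higher and 1 lower, where 23.6% of all genes did, 13.3% higher and 10.3% lower. A count of 3 of 9 is near that background, and the members' median difference was 0.08 on the log2 scale against 0.20 over all genes. Lifr, the LIF receptor chain, was lower in heart LECs in 10 of 12 mice at -0.42 (SE 0.15, limma adjusted p = 0.052), and passed without mouse 6 (adjusted p = 0.0077) or mouse 15 (0.037) and with quantile normalization (0.040). Osmr, the oncostatin M receptor chain, differed by -0.11 (SE 0.10), and the ligands Lif, Ctf1, Il11 and Clcf1 by 0.48, 0.51, 0.08 and 0.03, none of them past the threshold. Within batches 1 and 2, the mean difference was -1.85 and -2.37 for Il6 and 1.36 and 1.63 for Il6ra. BEC markers in heart LECs were at 0.205 of their level in heart BECs of the same mouse (median, range 0.149 to 0.518), a ratio near that of Il6, and their part in the Il6 difference was not tested.

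Diaphragm LECs held more Il6, Il6ra and Osmr than heart LECs of the same mouse. Il6 was higher in 11 of 11 mice, with a median ratio of 2.86 (range 1.19 to 12.3), and its log2 difference was 1.72 (SE 0.24, limma adjusted p = 0.00012). Il6ra was higher in 10 of 11 mice by a median ratio of 1.86, a log2 difference of 0.97 (SE 0.19, limma adjusted p = 0.0039). Osmr was higher in 10 of 11 mice by a median ratio of 1.32, a difference of 0.40 (SE 0.11, limma adjusted p = 0.037).

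No member was called lower in diaphragm LECs. The 3 of 9 called higher compare with 4.37% of the 29664 genes tested, 2.08% higher and 2.3% lower, and the members' median difference was 0.40 against -0.13 over all genes. Lifr was lower in 10 of 11 mice at -0.65 (SE 0.18, adjusted p = 0.051 by limma), and Lif, whose product keeps stem cells undifferentiated in culture, was higher in 9 of 11 at 1.06 (SE 0.31, adjusted p = 0.065 by limma). Lifr passed without mouse 14 (limma adjusted p = 0.048) or mouse 18 (0.032), and Lif without mouse 18 (0.028) and with quantile normalization (0.030). The Osmr call was the least firm: the limma adjusted p ranged from 0.014 to 0.10 when each mouse was left out, and exceeded 0.05 without mouse 1, 5, 6, 8, 11, 14 or 18, and with quantile normalization (0.067). With ctrl mice only, Il6ra at 0.75 (limma adjusted p = 0.48) and Osmr at 0.46 (0.40) lost their calls. Il6 differed by 1.15 within batch 1 and 2.19 within batch 2. LEC markers were 1.78 times as high in diaphragm LECs as in heart LECs of the same mouse (median of 11) and BEC markers 0.627 times, and the part of either in these differences was not tested.

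Cardiomyocyte libraries held less Il6st, Lifr, Osmr and Il6 than heart BECs of the same mouse, and more Ctf1. Il6st was at a median ratio of 0.369 (range 0.157 to 0.436), Lifr at 0.265 (0.189 to 0.428) and Osmr at 0.238 (0.18 to 0.323), each lower in 12 of 12 mice. For these 3 genes the ranges of the populations did not overlap, which held for 23.4% of all genes tested in the same direction. Ctf1, which encodes cardiotrophin-1, a cytokine first known for making cardiomyocytes grow, was higher in cardiomyocytes in 12 of 12 mice, with 1.48 to 10.6 TPM against 0 to 1.79 TPM in heart BECs, where 5 of 12 libraries listed it at 0.

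Of the 9 members, 6 passed the threshold between cardiomyocytes and heart BECs, 2 higher and 4 lower, in a comparison in which 75.2% of the 23213 genes tested did so, 11.0% higher and 64.3% lower. The lower calls were no more frequent than this background, and the members' median difference was -0.31 on the log2 scale against -0.61 over all genes. By limma, the log2 difference was -2.01 (SE 0.09, adjusted p = 4.7e-13) for Osmr, -1.68 (SE 0.11, adjusted p = 9.0e-11) for Lifr, -1.55 (SE 0.11, adjusted p = 4.8e-10) for Il6st and 1.81 (SE 0.26, adjusted p = 4.9e-06) for Ctf1. Il6 was lower in 12 of 12 mice, at a median ratio of 0.583 (range 0.385 to 0.767) and a log2 difference of -0.83 (SE 0.09, limma adjusted p = 9.0e-08). Its difference within mice of endothelial batches 1 and 2 was -0.94 and -0.72.

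Quantile normalization moved the median of all genes in this comparison by 0.47, from -0.61 to -0.15, and with it Il6 differed by only -0.15 (limma adjusted p = 0.24), the only alternative of 19 to lose the call (adjusted p from 7.4e-08 over all of them). Under the same scaling Osmr was at -1.21, Lifr at -0.99 and Il6st at -0.81, all still called. Il11, an IL-6 relative known from cardiac fibroblasts, was higher in cardiomyocytes in 9 of 12 mice at 0.45 (SE 0.18, limma adjusted p = 0.033), a call lost without mouse 2, 6, 11, 12 or 15 (adjusted p of 0.016 to 0.085 with each mouse left out) and without the fibroblast-rich heart BEC libraries of mice 1, 2 and 3 (adjusted p = 0.074) or with no filter on low values (adjusted p = 0.062). Il6ra was at -0.31 (adjusted p = 0.054 by limma), Lif at 0.28 and Clcf1 at -0.22, and none of these passed. Il6ra passed without mouse 6 (limma adjusted p = 0.024) or mouse 18 (0.039), and Lif without mouse 12 (0.043) and with quantile normalization (0.00068).

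Endothelial markers in the cardiomyocyte libraries were at 0.164 of their heart BEC level for BEC markers and 0.157 for 4 pan-endothelial markers (medians of 12 mice), below the ratios of Il6, Il6st, Lifr and Osmr. Fibroblast markers were 6.60 times and macrophage markers 20.9 times as high in cardiomyocyte libraries as in heart BECs. The part of these cells in the cardiomyocyte values was not tested.

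**Figure D2:**
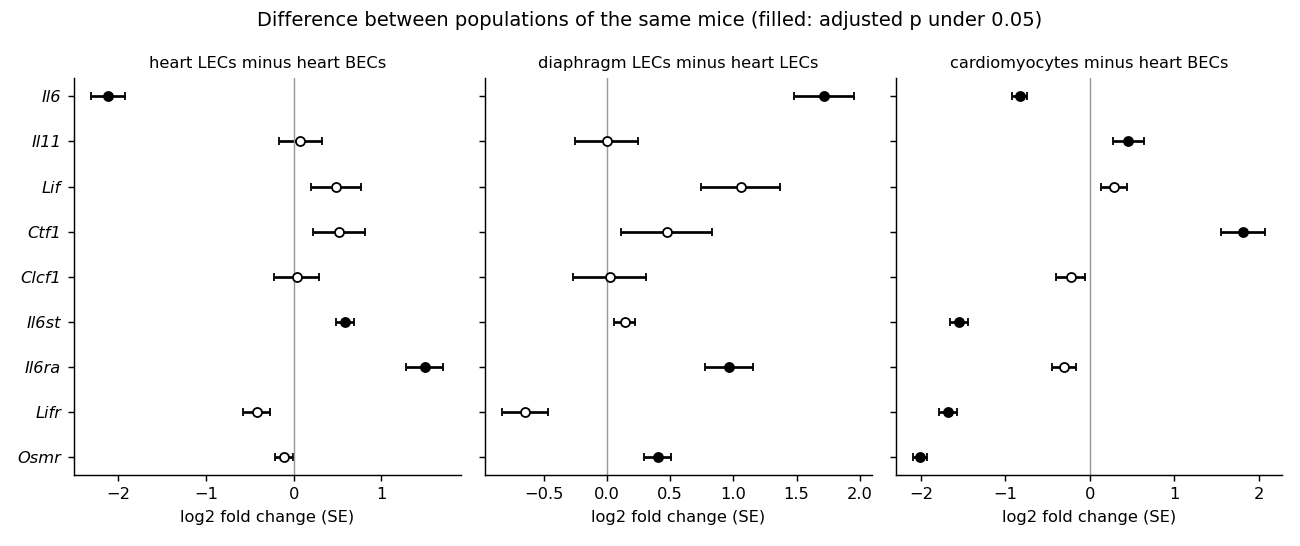
Difference between populations of the same mice for each member, in log2(TPM + 1), with its standard error; filled points passed a limma adjusted p of 0.05. Il6 was at -2.11 in heart LECs against heart BECs and at 1.72 in diaphragm against heart LECs, and Osmr, Lifr and Il6st lay between -2.01 and -1.55 in cardiomyocytes against heart BECs.

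No member passed the threshold for a treatment contrast in any population. Of 99 member tests in 12 contrasts, limma called 0 at an adjusted p of 0.05 and 5 had an unadjusted p under 0.05. The smallest adjusted p was 0.194, and over all genes and contrasts 0.0476% of tests were called. Among all genes, the contrasts with the fewest and most tests at an unadjusted p under 0.05 had 314 and 3651 of 23839. Both were in diaphragm LECs, for angII+VEGFC vs ctrl and for angII vs ctrl. Members that reached 1 TPM in 3 libraries of a population, the filter for testing, were all 9 in heart LECs and cardiomyocytes, 8 in diaphragm LECs (without Il11) and 7 in heart BECs (without Il11 and Lif). Calls over all genes were few in heart LECs for angII vs ctrl, at 0.0261%, and in cardiomyocytes for angII vs ctrl, at 0.0892%, and for angII+VEGFC vs ctrl, at 0.663%.

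Il6 in heart LECs was higher in angII than in ctrl by 1.26 on the log2 scale (SE 0.43, unadjusted p = 0.010, adjusted p = 0.33 by limma). The 5 angII and 4 ctrl libraries did not overlap, as was so in this direction for 2.13% of all genes tested. The difference within batches 1 and 2 was 0.74 and 2.14. The median of all genes in this contrast was 0.23, and quantile normalization moved it by -0.24. Between angII+VEGFC and angII, Il6 in heart LECs differed by -0.94 (adjusted p = 0.51 by limma), and Il11 by -1.20 (SE 0.54, adjusted p = 0.45 by limma), with Il11 listed at 0 in 2 of 3 angII+VEGFC libraries. The Il6 value was -0.61, -1.50, -1.43 and -0.42 without mouse 3, 2, 6 or 8, and that of Il11 -3.46 with a pseudocount of 0.1 and -0.64 with quantile normalization, none of them past the threshold.

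In heart LECs, BEC markers summed to 2290 to 3829 TPM in ctrl, 3617 to 8105 in angII and 2657 to 3052 in angII+VEGFC, and 0 of 7 passed for angII vs ctrl by limma, with 4 at an unadjusted p under 0.05 and the smallest adjusted p at 0.114. Fibroblast markers summed to 960 to 1954 TPM in ctrl, 1168 to 2763 in angII and 1243 to 1807 in angII+VEGFC, and 1 of 8, the collagen gene Col1a2, passed for angII vs ctrl, at 2.84 (limma adjusted p = 0.029). Mural markers summed to 46.8 to 392, 119 to 862 and 86.9 to 262 TPM in the same order, and cardiomyocyte markers to 147 to 415, 177 to 1042 and 173 to 340 TPM. For angII vs ctrl the median difference was 1.59 over 8 mural markers and 1.03 over 8 cardiomyocyte markers, all 8 of each above 0, against 0.54 for BEC markers, 1.07 for fibroblast markers and 0.23 over all genes. For angII+VEGFC vs angII it was -0.90, -0.89, -0.54 and -0.73 against -0.37 over all genes. By limma 0 of 8 mural and 0 of 8 cardiomyocyte markers passed for angII vs ctrl, with 3 of each at an unadjusted p under 0.05. Among the 8 fibroblast markers, 7 had an unadjusted limma p under 0.05 for angII vs ctrl. Of these 8 markers 6 were above 0, so they did not all move the same way. Of all 26803 genes tested in this contrast, 2911 had an unadjusted p under 0.05. The part of any of these cells in the Il6 values of heart LECs was not tested.

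In the other populations, Il6 differed between angII and ctrl by 1.01 in cardiomyocytes (limma adjusted p = 0.54), by 0.85 in heart BECs (adjusted p = 0.96, and 0.40 without mouse 9) and by -0.08 in diaphragm LECs (adjusted p = 0.89). The angII effect on Il6 differed between heart and diaphragm LECs by 1.49 (SE 0.72, adjusted p = 0.50), so a difference of the effect between these populations was not established. Across the 6 interaction contrasts of the endothelial populations, limma called 0 of 54 member tests, with 3 at an unadjusted p under 0.05. The smallest adjusted p was 0.499, and 0.00102% of all tests were called. Over all genes, 1600 to 3616 of 32754 tests per contrast had an unadjusted p under 0.05. The interaction fits had no mouse block, so libraries of the same mouse were treated as independent.

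**Figure D3:**
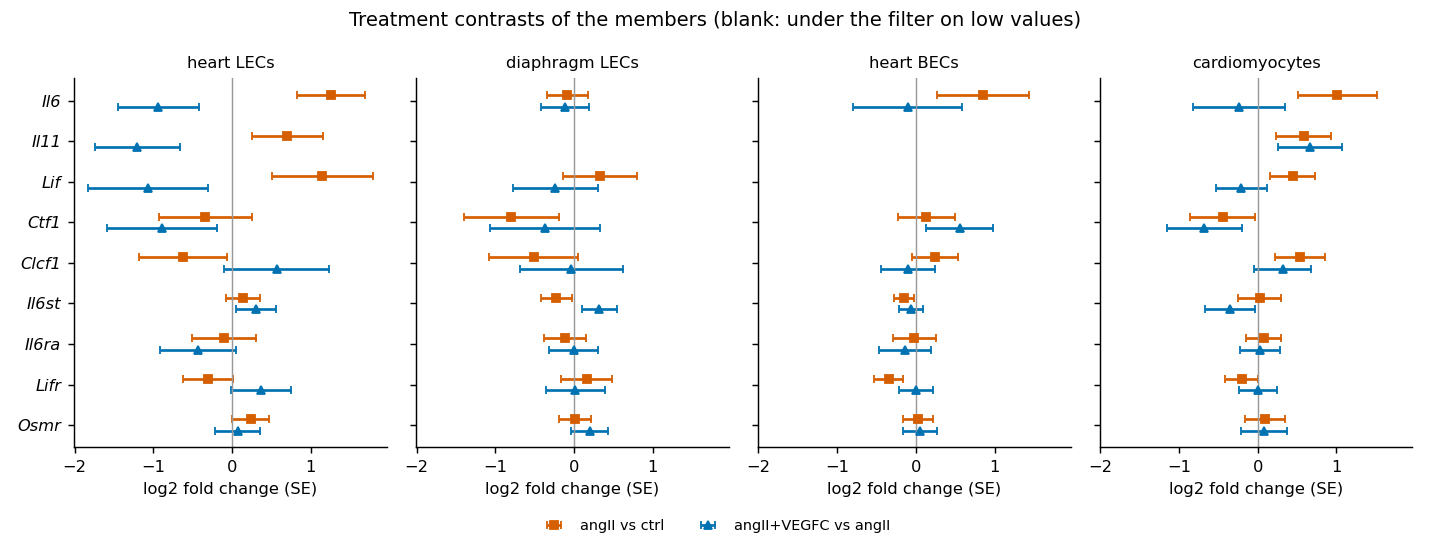
Treatment contrasts of each member in each population, in log2(TPM + 1), with standard errors; no point is past a limma adjusted p of 0.05. Il6 was at 1.26 for angII vs ctrl and at -0.94 for angII+VEGFC vs angII in heart LECs, and at -0.08 for angII vs ctrl in diaphragm LECs.

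Cardiomyocyte Il11 was 0.161, 0.348, 0.143 and 0.575 TPM in ctrl mice 1, 5, 9 and 11. In angII mice 3, 15, 12, 18 and 14 it was 1.37, 1.68, 0.940, 0.219 and 1.05 TPM, and in angII+VEGFC mice 2, 6 and 8 it was 4.2, 2.27 and 0.531 TPM. Mice 2 and 6 were above all other libraries, and mouse 8 lay inside the ctrl range. The difference between angII+VEGFC and ctrl was 1.24 (SE 0.41, unadjusted p = 0.0082, limma adjusted p = 0.19), and it was 0.69 without mouse 2 and 2.37 with a pseudocount of 0.1.

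Clcf1, which encodes a neurotrophic cytokine of the family, was 2.19, 2.38, 1.64 and 1.77 TPM in ctrl cardiomyocytes, 5.52, 2.27, 2.03, 5.36 and 2.68 TPM in angII and 8.06, 2.54 and 3.98 TPM in angII+VEGFC. All 3 angII+VEGFC values were above all ctrl values, which held for 9.19% of all genes tested in this direction, and the difference was 0.86 (SE 0.36, limma adjusted p = 0.33), or 0.26 without mouse 2 (adjusted p = 0.84). Cardiomyocyte Ctf1 was 7.49, 5.99, 10.6 and 2.46 TPM in ctrl, 8.91, 1.48, 2.14, 3.37 and 7.32 TPM in angII and 3.65, 1.90 and 1.98 TPM in angII+VEGFC. The groups overlapped, and angII+VEGFC differed from ctrl by -1.12 (SE 0.48, limma adjusted p = 0.33). In heart BECs, Il11 was 0.727 to 0.788 TPM in angII+VEGFC and 0.0847 to 0.560 in ctrl, without overlap (2.55% of genes tested in that direction), but all of these values were under 1 TPM and the gene was not tested.

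Leaving out the cardiomyocyte library of mouse 8, which stood apart by its 19306 genes, gave 2 calls among the members for angII+VEGFC vs ctrl: Il11 at 1.67 (limma adjusted p = 0.016) and Il6 at 1.63 (adjusted p = 0.030). With all libraries Il6 was at 0.78 there (adjusted p = 0.61), and with each cardiomyocyte library left out in turn its adjusted p ranged from 0.030 to 0.98 and that of Il11 from 0.016 to 0.61. Without mouse 2 or mouse 6 the Il6 difference was 0.059 or 0.35. With all libraries 0.663% of genes were called in this contrast. The share of all genes called without mouse 8 is not given, so nothing particular to members is drawn from the 2 calls. Il6 of mouse 8 was also the lowest in heart BECs, where 15476 genes reached 1 TPM, inside the range of the other libraries. Fibroblast markers in cardiomyocyte libraries summed to 7006 to 9398 TPM in ctrl, 7764 to 12785 in angII and 8229 to 11912 in angII+VEGFC, and macrophage markers to 520 to 670, 757 to 1516 and 775 to 1698 TPM. Their part in these values was not tested.

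Serpina3n, an acute-phase protease inhibitor and STAT3 target, was the pathway list gene with a called treatment contrast. It was 16.4, 15.0, 17.3 and 14.4 TPM in ctrl cardiomyocytes of mice 1, 5, 9 and 11, then 85.5, 159, 39.5, 87.9 and 87.2 TPM in angII mice 3, 15, 12, 18 and 14, and 176, 136 and 33.2 TPM in angII+VEGFC mice 2, 6 and 8. Every treated library was above every ctrl library, which held upward for 5.1% of all genes tested in angII vs ctrl and 9.19% in angII+VEGFC vs ctrl. The difference between angII+VEGFC and ctrl was 2.55 (SE 0.49, limma adjusted p = 0.033), and that between angII and ctrl did not pass (limma adjusted p = 0.057).

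The Serpina3n call depended on single libraries and on the filter. It held in 8 of 17 alternatives, with the difference between 1.95 and 3.21 and limma adjusted p of 0.00052 to 0.25. It was lost when any of mice 1, 5, 9, 11, 3, 2 or 6 was left out, with no filter, and with only the groups compared in the fit. No other gene of the pathway lists passed in a treatment contrast. In heart LECs for angII vs ctrl the smallest adjusted p by limma was 0.542 for Il27ra among the other family genes, 0.292 for Adam10 among the transducers and proteases, 0.372 for the transcription factor Myc among the targets and 0.353 for Zfp36 among the immediate early genes.

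**Figure D4:**
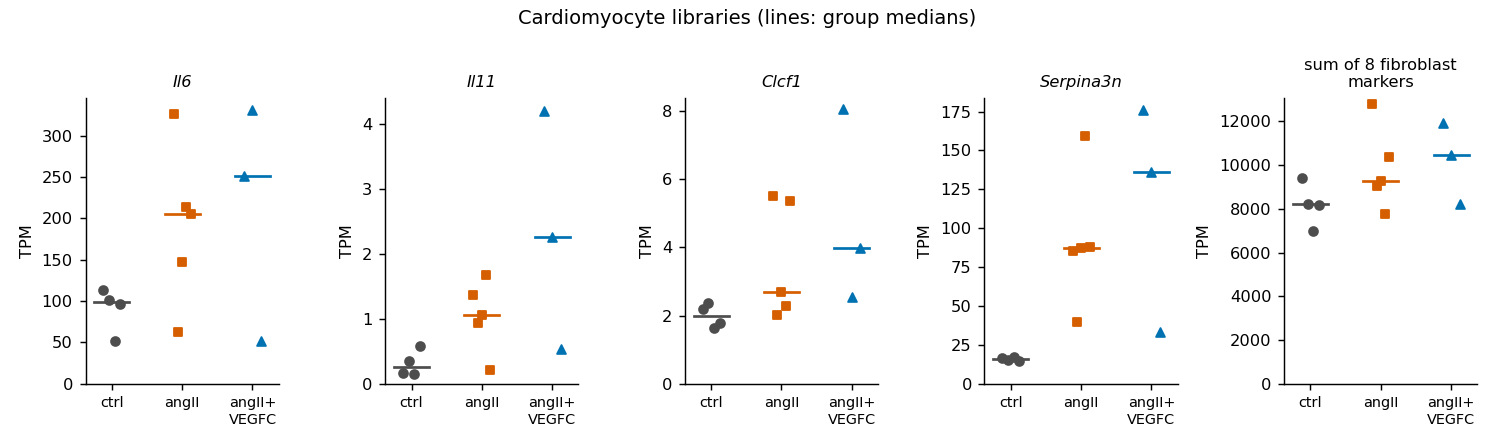
Il6, Il11, Clcf1, Serpina3n and the sum of 8 fibroblast markers in TPM in each cardiomyocyte library, with a line at each group's median. Serpina3n lay between 14.4 and 17.3 TPM in ctrl and between 33.2 and 176 TPM in the treated libraries, and the lowest angII+VEGFC point in each panel except Clcf1 is mouse 8.

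Il6 in cardiomyocytes followed Il6 in heart BECs of the same mouse. Over 12 mice, log2(TPM + 1) of Il6 in cardiomyocytes and in heart BECs had a Pearson r of 0.956 and a Spearman rho of 0.972, each with a permutation p of 1e-05, the smallest that 100000 permutations can give, and an adjusted p of 0.00024 over 24 relations computed for 6 members. Leaving out the 2 mice farthest from the median gave 0.960, batches 1 and 2 gave 0.948 and 0.985, the deviations from the treatment means 0.950, and leaving out each mouse 0.945 to 0.970. Without mice 1, 2 and 3, whose heart BEC libraries were rich in fibroblast markers, r was 0.986 over 9 mice. Among 14726 genes, Il6 had the highest r between these populations, where the median was 0.094.

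Between heart LECs and heart BECs r was 0.680 and rho 0.748 (permutation p adjusted to 0.084 and 0.057), with r at 0.526 without the 2 farthest mice and 0.467 and 0.965 in the batches. Between heart LECs and cardiomyocytes r was 0.690 (adjusted permutation p = 0.084), with 0.721 and 0.926 in the batches. Between diaphragm LECs and heart BECs r was 0.233 over 11 mice (adjusted permutation p = 0.71), -0.127 without the 2 farthest, and -0.341 and 0.805 in batches 1 and 2, which held 5 and 6 of these mice. The heart populations of a mouse came from the same digested heart, and what they share was not tested. Among the other members, the highest r was that of Osmr between cardiomyocytes and heart BECs, at 0.751 (permutation p = 0.0047, adjusted p = 0.056), and at 0.466 without the 2 farthest mice.

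**Figure D5:**
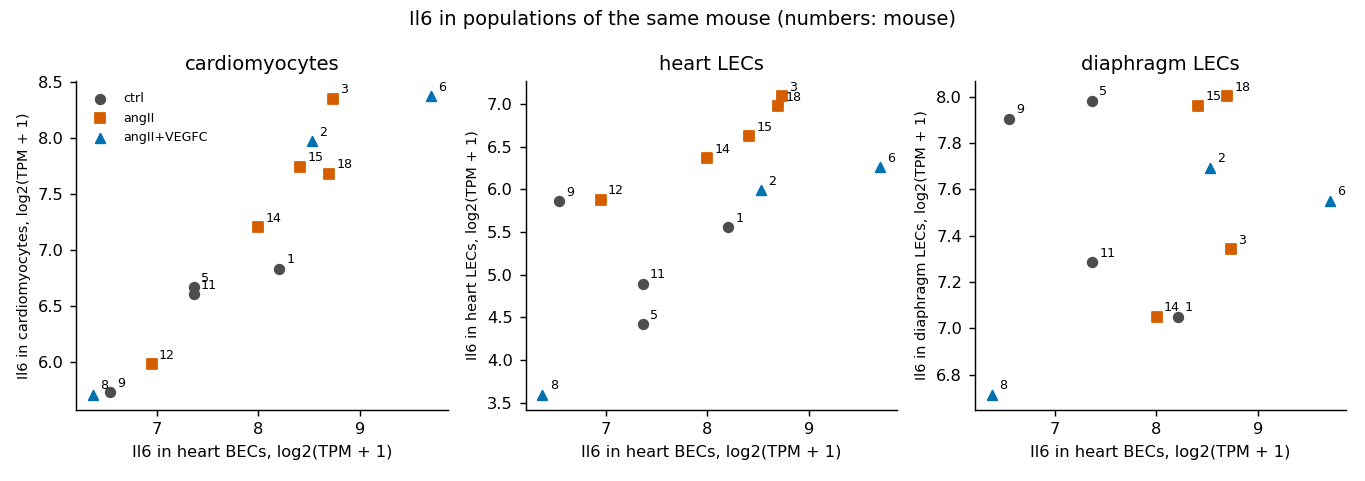
Il6 in cardiomyocytes, heart LECs and diaphragm LECs against Il6 in heart BECs of the same mouse, in log2(TPM + 1), with points numbered by mouse. Cardiomyocytes followed heart BECs closely (r = 0.956, 12 mice), with r at 0.680 for heart LECs and 0.233 for diaphragm LECs (11 mice), and mouse 8 was lowest in every panel.

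Immediate early genes such as Fos and Jun, which tissue digestion is known to induce, were abundant. Their list of 13 genes, which also holds the heat-shock genes Hspa1a and Hspa1b, summed to 26961 to 50184 TPM in endothelial libraries and 10268 to 16295 TPM in cardiomyocytes. The r of Il6 with the mean of the 13 genes over the 12 libraries of a population was 0.47 in cardiomyocytes, -0.47 in heart LECs, -0.36 in heart BECs and 0.03 in diaphragm LECs. None passed, with adjusted permutation p of 0.26, 0.26, 0.33 and 0.92 in that order. In batches 1 and 2 this r was 0.13 and -0.60 in heart LECs and 0.46 and -0.73 in diaphragm LECs. It kept its sign in heart BECs and cardiomyocytes. With the mean of the fibroblast markers the r of Il6 was 0.83 in cardiomyocytes, 0.77 in heart LECs, 0.45 in heart BECs and 0.44 in diaphragm LECs, which was not tested. These are descriptions: within a population each library was of another mouse, but libraries share treatments and batches, and the populations share mice.

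The other pathway lists were counted in the same comparisons of populations, to be read against the shares of all genes called, which were 13.3% higher and 10.3% lower in heart LECs against heart BECs, 2.08% and 2.3% in diaphragm against heart LECs, and 11.0% and 64.3% in cardiomyocytes against heart BECs. Nothing particular to a list is drawn from these counts. Other receptors and ligands of the family, a list of 9, had 6 tested between heart LECs and heart BECs, of which 3 were higher in heart LECs: the ciliary neurotrophic factor receptor Cntfr at 1.42, the IL-11 receptor chain Il11ra1 at 0.96 and the IL-27 receptor chain Il27ra at 0.62. Diaphragm LECs differed from heart LECs in 1 of 5, with Il27ra lower at -0.81. Cardiomyocytes exceeded heart BECs in 5 of 6, led by Osm, which encodes oncostatin M, at 2.03, Cntfr at 2.02 and the IL-27 subunit Ebi3 at 1.41, with Il27ra lower at -1.58.

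Transducers and shedding proteases, a list of 9 that includes Janus kinases, STATs and the proteases that release Il6ra from the cell, had 1 gene higher and 4 lower in heart LECs than in heart BECs. The kinase Jak2 was at -0.81, the protease Adam17 at -0.71 and the kinase Tyk2 at -0.44, while the protease Adam10 was higher at 0.43. Between diaphragm and heart LECs 0 of 9 passed by limma and 1 had an unadjusted p under 0.05, Adam10 at 0.36 (adjusted p = 0.088). Of all 29664 genes tested there, 5341 had an unadjusted p under 0.05. In cardiomyocytes 7 of 9 were lower than in heart BECs and none higher, where 64.3% of all genes were lower, with Adam10 at -2.04, Adam17 at -1.62, Stat3 at -1.55 and the kinase Jak1 at -1.54, against the all-gene median of -0.61.

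Feedback inhibitors and targets, 14 genes, split in heart LECs against heart BECs into 7 higher and 5 lower. Lcn2, an acute-phase iron carrier, had a median of 717 TPM in heart LECs and 9.35 in heart BECs, a difference of 6.11, and Serpina3n was higher by 3.15 and the transcription factor Cebpb by 1.91. The inhibitor Socs1 was lower at -2.32. Diaphragm LECs exceeded heart LECs in 5 and were lower in 2, with Lcn2 at 1.13, the adhesion molecule Icam1 at 0.81, Bcl3 at 0.53 and Socs1 at -1.0. The Bcl3 call (limma adjusted p = 0.029) was lost without mouse 1, 2, 5, 8, 14 or 18, with no filter and with quantile normalization, at adjusted p of 0.054 to 0.080. Cardiomyocytes were lower than heart BECs in 10 of 14, near the 64.3% of all genes, and higher in 2, with Icam1 at -2.48 and Socs1 at -2.19 against Timp1, an inhibitor of matrix proteases, at 2.94 and Serpina3n at 2.44. With ctrl mice only the Serpina3n difference was 0.86 (limma adjusted p = 0.078), and its call was lost. Socs3, the main feedback inhibitor of gp130, was abundant throughout, with medians of 2766 TPM in diaphragm LECs, 2200 in heart LECs, 2087 in heart BECs and 562 in cardiomyocytes.

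Of the 13 genes in the immediate early list, 10 were lower and 1 higher in heart LECs than in heart BECs (median -0.58), with Hspa1a at -1.85, Ier3 at -1.39, Hspa1b at -1.24 and Ier2 at -0.73. In diaphragm LECs 4 were higher and 2 lower than in heart LECs, with Zfp36 at 0.55 and Egr1 at 0.34 against Hspa1a at -1.36 and Hspa1b at -0.68. All 13 were lower in cardiomyocytes than in heart BECs (median -1.78), among them Jun at -1.97, Atf3 at -1.90, Hspa1a at -1.86 and Hspa1b at -1.85. Hspa1a and Hspa1b are heat-shock genes held in this list, not immediate early genes in the strict sense. They are near-identical copies whose reads cannot be told apart with certainty, and Junb stands in both this list and that of targets.

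The members are protein-coding genes placed by GENCODE M21 on GRCm38. Il11 lies on chr7:4772373-4782859, minus strand, Lif on chr11:4257557-4272514, plus strand, and Clcf1 on chr19:4214238-4223490, plus strand. Clcf1 overlaps the protein-coding gene AC109138.7 on the same strand, which has no row in the matrix, and the microRNA gene Gm26115 on the opposite strand. The part of AC109138.7 in the Clcf1 values was not tested. Il6ra on chr3:89864059-89913196, minus strand, overlaps the antisense gene Gm42809, with a mean of 0.993 TPM, and the library kit did not mark strand, so reads of the overlap cannot be told apart. Ctf1 on chr7:127712736-127718192, plus strand, overlaps Ctf2 on the opposite strand, with a mean of 0.099 TPM. Il6st lies on chr13:112464070-112510086, plus strand, and Lifr and Osmr lie on chromosome 15 at chr15:7090614-7197489, plus strand, and chr15:6813577-6874969, minus strand.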

How the data were processed

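The authors aligned the reads to GRCm38 with STAR (2.5.3a) and quantified Ensembl release 95 genes with Salmon (0.12.0), versions as in the submitters' processing notes, and deposited gene-level TPM for 54752 genes in 48 libraries. Libraries outlying in principal components had been removed by the authors. TPM are not counts, so no count model was run. Here log2(TPM + 1) was tested with limma (3.58.1, trend) in R (4.3.3) on genes that reached 1 TPM in 3 of the fitted libraries, with Benjamini-Hochberg adjustment over all genes tested and a threshold of 0.05. Treatment contrasts were fitted within each population with age and, for endothelium, batch. Population contrasts had the mouse as a block, the pairing being the animal number in the labels. The 6 interaction contrasts used the 36 endothelial libraries with age and batch and no mouse block. Alternatives were a pseudocount of 0.1, no filter, quantile normalization, no covariates, only the groups compared, ctrl mice only, no block, and each library left out. For the interactions, a mouse block was an alternative. Leaving out the fibroblast-rich heart BEC libraries was added after seeing the data. Simulated libraries with known changes were used for the angII vs ctrl fits, the population contrasts and the heart LEC vs heart BEC interaction. They held no mouse effect. The angII+VEGFC contrasts, the correlations and Dixon's test were not simulated.

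The members and gene lists were chosen with earlier results of these data known. Some list genes are not reported here and were left out of the lists and their counts, while the fits kept all genes. All members were named, and from each pathway list at most 4 called genes per contrast with the largest change or, with none called, that with the smallest p, of which the text gives those of heart LECs for angII vs ctrl and the one nearest the threshold. Genes most like each member were the 3 with the highest Pearson r over 48 libraries. The labels give ages in months, and the study's text gives the animals' ages in weeks. Correlations used 100000 permutations (scipy 1.17.1). Loci are from GENCODE M21, promoter windows from RefSeq. The highest correlation between any 2 libraries was 0.9859, so no library was counted as deposited a second time.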

Additional observations from a re-analysis of the deposited data

Results flagged for a closer look

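In 6 of 72 groups of 4 or 5 libraries, 1 library lay far from the rest of its group by Dixon's test. For normally distributed values chance gives this in about 1 of 20 groups. All 6 were of the low ligands Il11, Lif and Ctf1, to which that rate does not apply. Where the other libraries are all at 0, any detected value is flagged, so no excess is drawn from the count. Ctrl mouse 5 was such a library in 4 of them. In its heart LECs Il11 was 1.96 TPM, with the other ctrl libraries at 0, and Lif was 4.61 TPM, with the next at 0.0672. In its diaphragm LECs Lif was 4.84 TPM, with the next at 2.56, and in its heart BECs Ctf1 was 1.26 TPM, with the others at 0. Lif was 13.2 TPM in angII diaphragm LECs of mouse 4, where the next was 4.52. Ctf1 was 4.65 TPM in angII heart LECs of mouse 3, where the next was 0.698.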

How the results depend on the processing

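Called members changed in number as follows. The share of all genes called under each setting is not given here, so nothing particular to the members is drawn from these counts. Leaving out each library gave 0 to 2 treatment calls, the 2 arising without cardiomyocyte mouse 8. With ctrl mice only, 1 member remained called in heart LECs vs heart BECs (Il6, with Il6ra at an adjusted p of 0.081 and Il6st at 0.34) and 1 in diaphragm vs heart LECs (Il6, with Il6ra at 0.48 and Osmr at 0.40), by limma on fewer mice. With them, 7, 7 and 1 of the named genes of the pathway lists lost their call in heart LECs vs heart BECs, diaphragm vs heart LECs and cardiomyocytes vs heart BECs. Without the replicate block, that is without the pairing by mouse, 4, 3 and 6 members were called in the comparisons of heart LECs with heart BECs, diaphragm with heart LECs, and cardiomyocytes with heart BECs, against 3, 3 and 6 with it. Unpaired, Lifr gained a call in both LEC comparisons (adjusted p of 0.035 and 0.037 by limma) and Il6ra in cardiomyocytes (0.041), while Osmr in diaphragm LECs (0.083) and Il11 in cardiomyocytes (0.051) lost theirs. Without the fibroblast-rich heart BEC libraries 3 and 5 were called in the comparisons with heart BECs. The interaction contrasts gave 0 calls in every alternative.

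Among called genes of the text, 913 values under an alternative kept their call, 55 lost it and none reversed. Values that reversed belonged to genes without a call. Il11 in heart LECs vs heart BECs was -0.21 with a pseudocount of 0.1 and -0.041 with quantile normalization, and in diaphragm vs heart LECs it was 0.36 and 0.22 under the same settings. Quantile normalization put Clcf1 at -0.36 in heart LECs vs heart BECs and at 0.29 in cardiomyocytes vs heart BECs, where Il6ra was 0.15. Clcf1 was -0.27 in heart LECs vs heart BECs without the fibroblast-rich libraries and -0.056 in diaphragm vs heart LECs with ctrl mice only. With each library left out, Clcf1 ranged from -0.12 to 0.14 in heart LECs vs heart BECs and from -0.15 to 0.18 in diaphragm vs heart LECs, Il11 from -0.11 to 0.20 in diaphragm vs heart LECs, and Il6 in diaphragm LECs for angII vs ctrl from -0.29 to 0.19. The causes were not tested. The planned fit with 1 surrogate variable was not run. TPM give no depth, so members under 1 TPM carry an unknown counting error.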

Other observations

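The genes whose levels were most like a member's over the 48 libraries are given by Pearson r of log2(TPM + 1) among 14309 genes, as a description of libraries that share mice and fall into 4 populations. For Il6 they were the small GTPase Rab20 at 0.812, Arid5a, an RNA-binding protein known to stabilize Il6 mRNA, at 0.756 and Litaf at 0.711. Within cardiomyocyte libraries the r of Il6 with Litaf was 0.945. Il6st was most like the endothelin-converting enzyme Ece1 at 0.969, Aplp2 at 0.967 and the protease Adam10 at 0.963, and Osmr was most like Anxa7 at 0.965, Pdcd6ip at 0.965 and Ywhaz at 0.963. Il6ra was most like Clca2 at 0.949, Bcr at 0.948 and Slc10a6 at 0.943. Lifr was most like the endothelial genes Emcn at 0.899 and Eng at 0.896, and Tap2 at 0.894. Within single populations some of these relations were absent or reversed. The r of Il6ra with Clca2 was -0.063 in diaphragm LECs and -0.42 in cardiomyocytes. In heart BECs that of Il6st with Adam10 was -0.097 and that of Lifr with Eng -0.17. All other pairs named here were above 0 in each population.

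Of the low ligands, Lif was most like Atp10a at 0.748 and Arrdc3 at 0.738, and Ctf1 was most like the mitochondrial fusion gene Mfn2 at 0.746. Clcf1 had no gene above an r of 0.584, that with Peg12.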
